A study of Bos grunniens with 18 samples.

Results

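The genes described here encode the plasma membrane of the red blood cell and the protein skeleton beneath it. The list held 9 genes, SLC4A1, ANK1, SPTB, EPB41, EPB42, DMTN, ADD2, RHAG and AQP1, and a gene was a member when its name in the deposited table was on the list. Of the 9, 8 had a row among the 20607 genes of the table. EPB42 was not analysed here. Whole blood of yaks (Bos grunniens) was sequenced in 18 libraries, 6 from each of 3 reproductive stages. The stages are anestrus, called Y-A, then estrus, called Y-E, and pregnancy, called Y-P. The cows were adult and came from a single artificially inseminated herd, and the labels name no breed or genotype. The study states that blood was tracked across the stages and that 6 cows were chosen, so libraries of different stages may share a cow. The main tests treat the 18 libraries as independent, and fits with the replicate number as a block are given beside some of them. By the study's methods, estrus was synchronized with a progesterone pessary, cloprostenol (a prostaglandin F analog) and gonadotropin-releasing hormone before timed insemination, and the day of pregnancy at sampling is not given in the sources used here. Blood was drawn into EDTA tubes and mixed with TRIzol LS without removal of red cells, and libraries were made from poly(A) RNA. In such bulk samples, fewer cells of a type and less RNA per cell cannot be told apart.

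A mammalian red cell has no nucleus, so its messenger RNA is that left from its precursors, and it is most plentiful in reticulocytes, the youngest red cells in blood. The membrane is held to a flexible net of spectrin, whose long tetramers meet at short actin filaments. Band 3 (SLC4A1), the anion exchanger that swaps bicarbonate for chloride, anchors the net through ankyrin-1 (ANK1), which binds beta-spectrin (SPTB). At the actin junctions, protein 4.1R (EPB41), dematin (DMTN) and beta-adducin (ADD2) tie spectrin and actin together. RHAG, the Rh-associated glycoprotein, is an ammonium and gas channel of the band 3 complex, and AQP1 is the water channel of the red cell. Inherited loss of several of these proteins gives spherical, oval or fragile red cells.

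The deposited table, whose gene models carry Ensembl identifiers of genome version v101 (an Ensembl release number), placed SLC4A1 (ENSBGRG00000025780) on the plus strand of chromosome 19 at 21778823 to 21792427. ANK1 (ENSBGRG00000009277) lay on the plus strand of chromosome 28 at 16998386 to 17291016, SPTB (ENSBGRG00000003783) on the minus strand of chromosome 11 at 66414396 to 66491593, and EPB41 (ENSBGRG00000016000) on the plus strand of chromosome 2 at 13310047 to 13427319. DMTN (ENSBGRG00000007906) was on the plus strand of chromosome 7 at 4211683 to 4228047 and ADD2 (ENSBGRG00000005804) on the plus strand of chromosome 9 at 32419447 to 32563746. RHAG (ENSBGRG00000024029) was on the plus strand of chromosome 24 at 12709022 to 12736180 and AQP1 (ENSBGRG00000003951) on the plus strand of chromosome 4 at 59937275 to 59952176. The 8 genes were thus on 8 chromosomes, and only the span of ANK1 overlapped other genes of the table. Within it lay GPAT4, a glycerol-phosphate acyltransferase gene on the minus strand with 81.3 to 160 CPM, and an unnamed gene on the plus strand. CPM stands for counts scaled to a library of 1000000 after TMM normalization. Whether counting used strand is not given in the sources used here, so ANK1 counts may include reads of these neighbours. In Y-E replicate 2, ANK1 had 0 counts and GPAT4 3300, and in Y-A replicate 2 ANK1 had 2 and GPAT4 4085. The share of such reads was not tested.

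The libraries held 30247267 to 48401076 counts, and 3 counts, the most that an observed count of 0 allows at 95% confidence (counting error only), came to at most 0.107 CPM. Markers of the cell types of whole blood were present: all marker genes with a row for neutrophils (6 of 6), T cells (5 of 5), B cells (7 of 7) and monocytes (6 of 6), and 4 of 5 for platelets, exceeded 3 counts in all 18 libraries. Of 14 erythroid markers, 11 had a row and 8 of these exceeded 3 counts in all libraries. Y-A replicate 6 and Y-E replicate 6 stood apart from the libraries of their own stage. Their summed erythroid markers were 12078 and 5428 CPM, against 876 to 3627 CPM in the other Y-A and 473 to 609 CPM in the other Y-E libraries. In Y-P all 6 libraries lay between 342 and 436 CPM. The study's own tables list 17 libraries and leave out Y-E replicate 6. Results are therefore given over 18 libraries, over the 17 without Y-E replicate 6, and over the 16 without number 6 of Y-A and Y-E, a set chosen after the values were seen.

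Both of these libraries carried the highest level of every member in their stage. Number 6 was the highest library for 8 of 8 members in Y-A and for 8 of 8 in Y-E, while over the 14508 genes tested it was the highest for 21.0% and 24.3%. In Y-P, number 6 was the highest for 4 of 8 members (SLC4A1, SPTB, RHAG and AQP1), against 14.3% of the tested genes. All 8 members passed the filter on low counts over the 18 libraries. Without number 6 in Y-A and Y-E, 7 passed and RHAG did not, so its place among the tested genes came from those libraries.

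**Figure D1:**
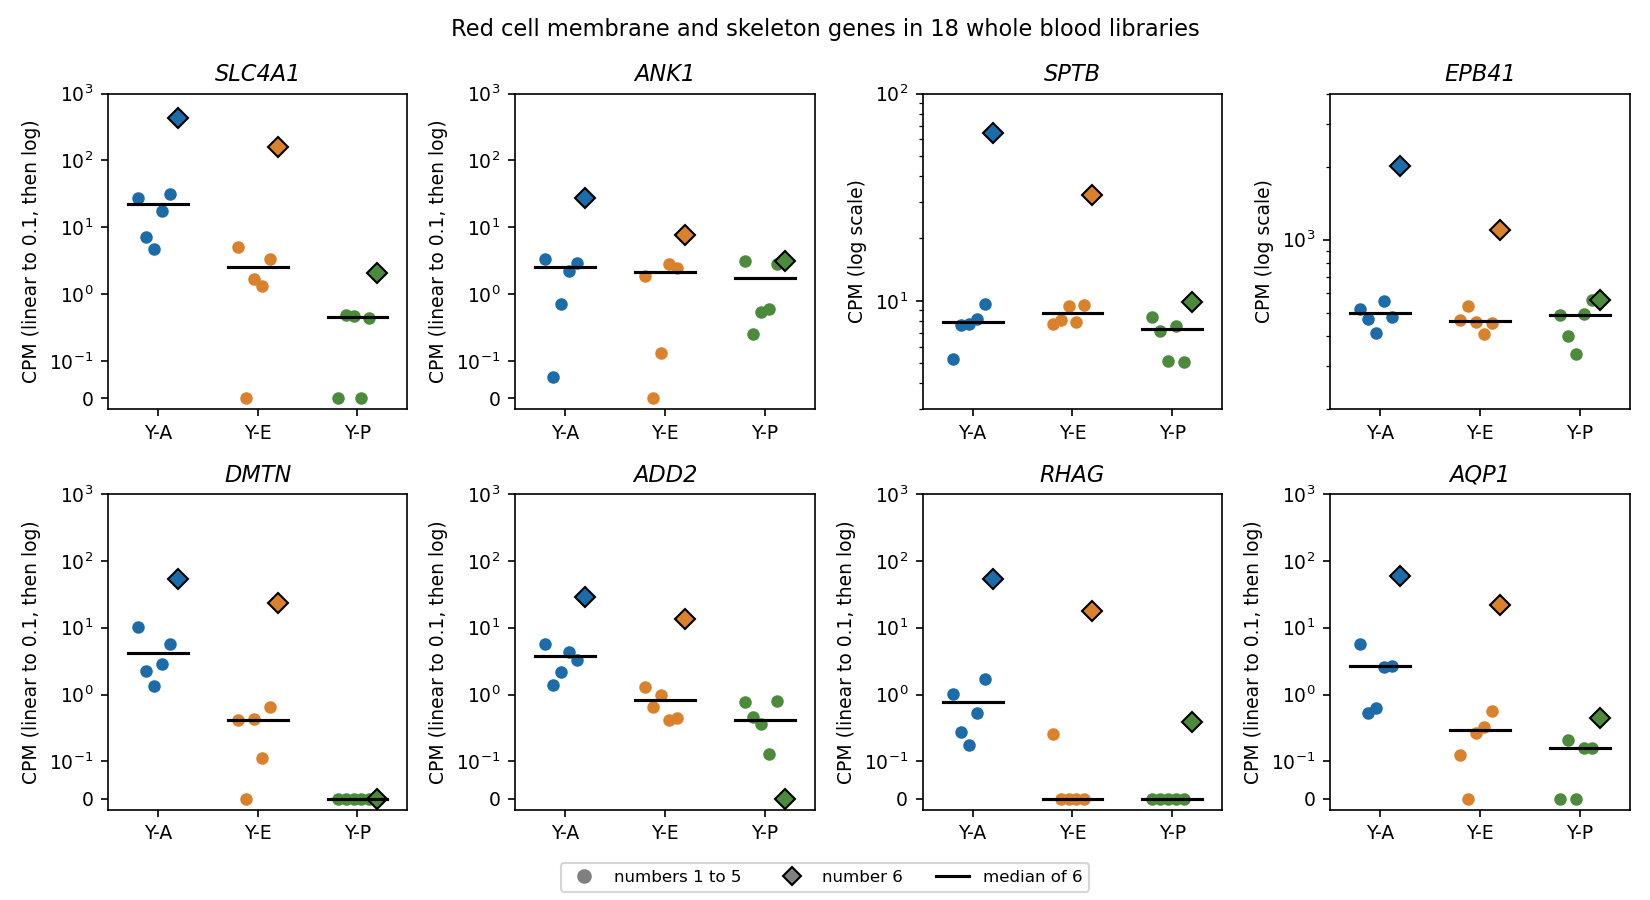
CPM of the 8 genes in every library by stage, with the axis linear up to 0.1 CPM and logarithmic above for 6 genes, and logarithmic throughout for SPTB and EPB41; diamonds are the libraries numbered 6, circles the other 5, and lines the median of 6. SLC4A1 steps down from a median of 22.5 CPM in Y-A to 0.459 CPM in Y-P, while EPB41 lies between 338 and 563 CPM in all libraries but Y-A and Y-E number 6, at 2019 and 1091 CPM.

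SLC4A1, DMTN, ADD2, RHAG and AQP1 were at their lowest median in Y-P, or level with Y-E at 0 for RHAG. ANK1 and SPTB also had their lowest median in Y-P, at 1.73 and 7.33 CPM, and are described below with EPB41. For SLC4A1, the lowest, median and highest Y-A libraries had 4.69, 22.5 and 425 CPM (mean 85.6 ± 167, SD, n = 6). The Y-E libraries had 0, 2.52 and 161 CPM, and the Y-P libraries 0, 0.459 and 2.06 CPM. In raw counts the Y-P libraries of the band 3 gene held 0 to 75, with 2 at 0, whereas the Y-A libraries held 159 to 11966. Every Y-P library was below every Y-A library, as for 2.32% of the tested genes, and Y-E overlapped both. Y-A replicate 6 was 24.2 times the median of the other 5 in its stage, and Y-E replicate 6 was 96.8 times the median of the other 5 in Y-E.

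RHAG, the ammonium and gas channel of the band 3 complex, was close to the floor outside the libraries numbered 6. The Y-A libraries ran from 0.177 CPM through a median of 0.773 to 54.1 CPM, with 6 to 57 counts in numbers 1 to 5 and 1523 in number 6. In Y-E, 4 of 6 libraries had no count, replicate 1 had 8 and replicate 6 had 770, or 17.7 CPM. In Y-P, 5 of 6 libraries had no count and replicate 6 had 14 counts, or 0.385 CPM. At these depths RHAG was thus detected in all 6 Y-A libraries, in 2 Y-E libraries and in 1 Y-P library, and a count of 0 allows up to 3.

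AQP1, the water channel, had 0.531, 2.65 and 59.9 CPM in the lowest, median and highest Y-A library. Its Y-E libraries had 0, 0.299 and 22.2 CPM and its Y-P libraries 0, 0.159 and 0.440 CPM. All Y-P libraries were below all Y-A libraries for AQP1, with 0 to 16 counts against 19 to 1684. Y-E numbers 1 to 5, at 0 to 0.562 CPM, reached just past the lowest Y-A library.

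DMTN and ADD2, both of the actin junction, separated Y-P from Y-A without overlap. For DMTN the Y-A libraries had 1.36, 4.25 and 54.2 CPM (lowest, median and highest), the Y-E libraries 0, 0.422 and 23.6 CPM, and the 6 Y-P libraries had no count. With Y-E replicate 6 left out, the highest Y-E library had 0.650 CPM, below every Y-A library, a separation that 0.82% of the tested genes had. For ADD2 the Y-A libraries had 1.40, 3.76 and 28.5 CPM, the Y-E libraries 0.415, 0.826 and 13.5 CPM, and the Y-P libraries 0, 0.411 and 0.805 CPM. Without Y-E replicate 6 the Y-E maximum of ADD2 was 1.30 CPM, again below every Y-A library. Unlike SLC4A1 and RHAG, ADD2 had no count in Y-P replicate 6 and 5 to 40 in the other 5, so number 6 was the lowest Y-P library for it.

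For EPB41, SPTB and ANK1 the 3 stages overlapped. EPB41, which encodes a skeleton protein also made in nucleated cells, was the most abundant member per transcript length, with a median of 98.1 FPKM (deposited fragments scaled to exon length and depth) in anestrus, 93.0 in estrus and 122 in pregnancy. The next highest median, SLC4A1 in Y-A, was 3.63 FPKM. In CPM, EPB41 had 411, 498 and 2019 in the lowest, median and highest Y-A library, 409, 461 and 1091 in Y-E, and 338, 490 and 563 in Y-P. Apart from the 2 libraries numbered 6, all 16 libraries lay between 338 and 563 CPM, and the stages overlapped. In Y-A the step from the other 5 libraries to number 6 was 4.23-fold for EPB41, against 100.7-fold for RHAG.

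SPTB, beta-spectrin, had 5.24, 7.91 and 64.7 CPM in the lowest, median and highest Y-A library, 7.71, 8.76 and 32.4 CPM for Y-E, and 5.05, 7.33 and 9.90 CPM for Y-P. Without number 6, its mean was 7.68 ± 1.59 CPM in anestrus (SD, n = 5) and 8.54 ± 0.892 CPM in estrus (n = 5). In pregnancy it was 7.19 ± 1.88 CPM (SD, n = 6). Beta-spectrin thus kept to a narrow band in 16 libraries in which SLC4A1 ran from 0 to 31.1 CPM. ANK1, the ankyrin that joins beta-spectrin to band 3, was low and scattered within every stage. Its Y-A libraries had 0.0559, 2.57 and 27.1 CPM, its Y-E libraries 0, 2.16 and 7.55 CPM and its Y-P libraries 0.253, 1.73 and 3.16 CPM, and the stages overlapped.

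The comparison of estrus with anestrus (Y-E vs Y-A) asked which genes differed when cows came into estrus. Over 18 libraries, the edgeR quasi-likelihood test called 0 of 8 members by the study's thresholds (an adjusted p under 0.05 with a log2 change of 1 or more in either direction), where 0.0138% of the tested genes were called. None had an unadjusted p under 0.05, as 6.2% of the genes did, and limma and DESeq2 also called 0, although DESeq2 gave no adjusted p for any of the 8. The fitted log2 fold changes ran from -1.67 for RHAG to -0.39 for EPB41, with a median of -1.47 against -0.01 over all tested genes. SLC4A1 had a log2 fold change of -1.57 ± 1.32 (SE; adjusted p = 0.999). Non-overlap in one direction was found for 0 members, against 0.172% of the tested genes.

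These estimates moved by over 1.5 times when 1 library was left out. Without Y-E replicate 6, the log2 fold changes were -5.22 ± 1.28 for SLC4A1, -5.50 ± 1.28 for AQP1, -5.30 ± 1.14 for DMTN, -3.31 ± 0.83 for ADD2 and -7.50 ± 1.88 for RHAG. Their adjusted p-values (edgeR) were 0.10, 0.092, 0.092, 0.11 and 0.11, so 0 of 8 were called where 0.123% of the genes were, although these 5 had an unadjusted p under 0.05, as did 8.43% of the genes. DMTN and ADD2 then had every Y-E library below every Y-A library. With the replicate number, taken to mark the cow, as a block, the 17 libraries gave calls for DMTN (log2 fold change -3.82, adjusted p = 0.047) and RHAG (-4.09, adjusted p = 0.022), where 0.232% of the genes were called. Without Y-A replicate 6 instead, the sign turned for SLC4A1, at 0.66, AQP1, at 0.65, and RHAG, at 1.96, none of them called. Over the 16 libraries without both, SLC4A1 was at -2.95 ± 0.95, AQP1 at -3.22 ± 0.99, DMTN at -3.78 ± 0.82 and ADD2 at -2.15 ± 0.67, with adjusted p from 0.14 to 0.36 and 0 of 7 called (0.0822% of the genes; all 4 had an unadjusted p under 0.05). RHAG did not pass the filter there, and with no filter it was at -3.80 ± 1.61 (edgeR adjusted p = 0.66).

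The comparison of pregnancy with anestrus (Y-P vs Y-A) asked which genes differed once cows had conceived, and here members were called. Over 18 libraries, 4 of 8 were called (SLC4A1, DMTN, ADD2 and AQP1), all lower in Y-P, where 1.43% of the tested genes were called and 1.09% were called lower. SLC4A1 fell by 7.21 ± 1.76 on the log2 scale (SE; edgeR adjusted p = 0.025). AQP1 fell by 6.20 ± 1.67 (adjusted p = 0.036) and ADD2 fell by 4.14 ± 1.04 (adjusted p = 0.028). DMTN, the junction protein, was at least 171-fold lower in mean CPM, taking 3 counts per library as the floor in Y-P (adjusted p = 0.021). That bound covers counting error in Y-P only, and with number 6 left out of the Y-A mean it was 59.9-fold. The same 4 genes had every Y-P library below every Y-A library.

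The other 4 members were not called in Y-P vs Y-A. RHAG had a log2 fold change of -7.26 ± 2.19 (edgeR adjusted p = 0.055) and was called without Y-E replicate 6 (adjusted p = 0.019; 5 of 8 called, against 1.56% of the genes) and with the replicate block (adjusted p = 0.00025), which then called 5 of 8 against 1.76% of the genes. These calls rested on number 6. Without number 6 of Y-A and Y-E and with no filter, RHAG was at -3.54 ± 1.46 and not called (edgeR adjusted p = 0.21). Its sizes depend on the fit, since 5 of 6 Y-P libraries had no count. SPTB, ANK1 and EPB41 had log2 fold changes of -1.26 ± 0.55, -1.79 ± 1.09 and -0.65 ± 0.35, with adjusted p of 0.18, 0.34 and 0.28. These 3 estimates rested on number 6. Over the 16 libraries they were -0.13 ± 0.19 for SPTB, -0.12 ± 0.94 for ANK1 and -0.07 ± 0.13 for EPB41.

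The 4 calls of Y-P vs Y-A were made without number 6 in Y-A and Y-E as well, where 1.18% of the genes were called. Over those 16 libraries SLC4A1 fell by 4.96 ± 0.98 (edgeR adjusted p = 0.011), ADD2 fell by 3.01 ± 0.65 (adjusted p = 0.017), AQP1 fell by 3.91 ± 0.95 (adjusted p = 0.030), and DMTN was at least 59.9-fold lower (adjusted p = 0.0010). Leaving out Y-A replicate 6 alone, however, or Y-P replicate 2 or 4, left 1 call, DMTN. Without Y-P replicate 3, DMTN and SLC4A1 were called, without Y-P replicate 5, DMTN and ADD2, and without Y-P replicate 1, DMTN, SLC4A1 and ADD2. Fits with 1 library left out called 110 to 229 genes over the whole table, against 208 of 14508 over 18 libraries.

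**Figure D2:**
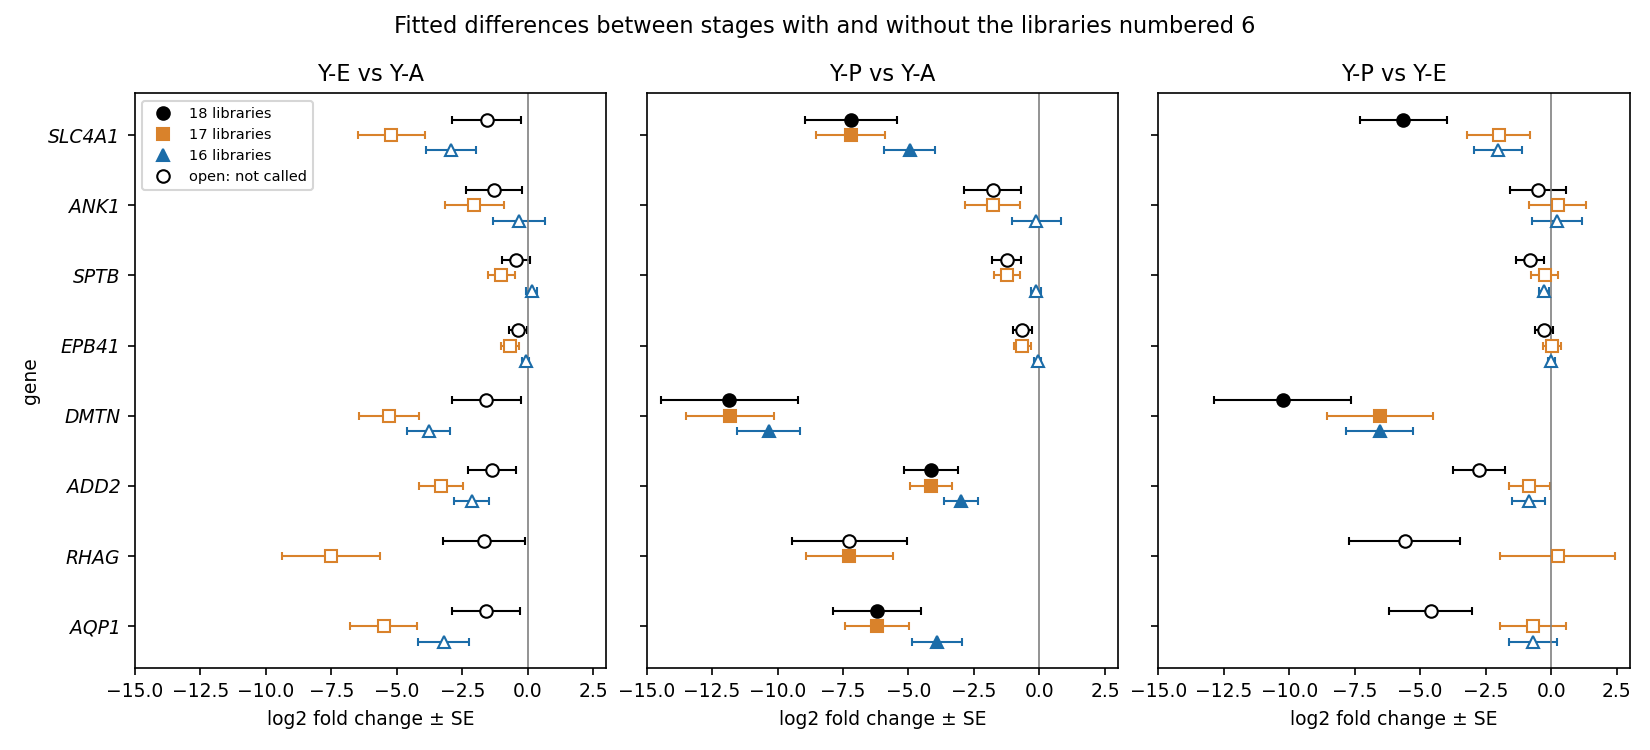
Fitted log2 fold change ± SE (x axis) of each gene in the 3 comparisons, over 18 libraries (circles), 17 without Y-E replicate 6 (squares) and 16 without number 6 of Y-A and Y-E (triangles; RHAG did not pass the filter there); filled symbols are called. In Y-P vs Y-A the 4 genes SLC4A1, DMTN, ADD2 and AQP1 are filled in all 3 sets, SPTB and EPB41 move to -0.13 and -0.07 in the 16, and the DMTN values against Y-P, where it has no count, depend on the fit.

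The comparison of pregnancy with estrus (Y-P vs Y-E) depended on Y-E replicate 6 and on the block. Over 18 libraries 2 of 8 members were called, DMTN and SLC4A1, both lower in Y-P, where 2.67% of the genes were called and 2.22% were called lower. SLC4A1 fell by 5.65 ± 1.66 on the log2 scale (edgeR adjusted p = 0.028), and DMTN was at least 56.3-fold lower (adjusted p = 0.019). The remaining log2 fold changes were -5.59 ± 2.11 for RHAG, -4.60 ± 1.59 for AQP1, -2.77 ± 0.99 for ADD2, -0.80 ± 0.55 for SPTB, -0.51 ± 1.06 for ANK1 and -0.26 ± 0.35 for EPB41, with adjusted p from 0.058 to 0.80. No member had all Y-P libraries below all Y-E libraries, which 3.84% of the tested genes had. Without Y-E replicate 6, only DMTN was called (adjusted p = 0.049, at least 4.31-fold lower), against 2.58% of the genes, and SLC4A1 was at -1.99 ± 1.20 (adjusted p = 0.30). The replicate block over 18 libraries called 3 (DMTN, SLC4A1 and RHAG, with adjusted p of 0.0025, 0.013 and 0.0030), against 2.9% of the genes. Over the 17 libraries the block called DMTN (adjusted p = 0.0052) and SLC4A1 (log2 fold change -2.94 ± 0.85, adjusted p = 0.033), against 2.98% of the genes. Without the block, SLC4A1 was likewise not called when any of Y-P replicates 2 to 5 was left out, and AQP1 and ADD2 were called besides it and DMTN without Y-A replicate 6 or Y-E replicate 4. Such fits called 289 to 476 genes over the whole table, against 387 of 14508 over 18 libraries.

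The 3 comparisons share libraries, so their values are given side by side and not as separate evidence. The ratio of stage medians in CPM was 8.95 for SLC4A1 in Y-A over Y-E and 49.1 in Y-A over Y-P. For AQP1 the ratios were 8.85 and 16.6, and for ADD2 4.55 and 9.14. For DMTN the ratio of Y-A over Y-E was 10.1. For SPTB they were 0.903 and 1.08 and for EPB41 1.08 and 1.02. For ANK1 they were 1.19 and 1.48, and the latter was 3.62 without number 6 in either stage. Also without number 6 in either stage, the Y-A over Y-E ratios were 10.6 for SLC4A1, 9.84 for AQP1, 6.87 for DMTN and 4.97 for ADD2.

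Hemoglobin transcripts, the chief product of red cell precursors, moved in the same libraries. The 6 genes of the hemoglobin complex made up 3.10% to 16.7% of all counts in Y-A, 0.0899% to 8.36% in Y-E and 0.0272% to 0.376% in Y-P. Number 6 was the highest in each stage, at 16.7%, 8.36% and 0.376%. Yet the hemoglobin share of Y-A replicate 6 was not far above the 12.1% of Y-A replicate 1, whose SLC4A1 level was 27.5 CPM against 425 CPM. Scaled to 1000000 hemoglobin counts, SLC4A1 had 2232 counts in Y-A replicate 6, where the other 5 Y-A libraries had 130 to 443. On that scale Y-E replicate 6 had 1804 SLC4A1 counts, where the other 5 Y-E libraries had 0 to 1545 and the Y-P libraries 0 to 1554. RHAG had 284 in Y-A replicate 6 against 4.92 to 22.0 in the other 5, and EPB41 had 10593, inside the range of 3750 to 15841 of the others.

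**Figure D3:**
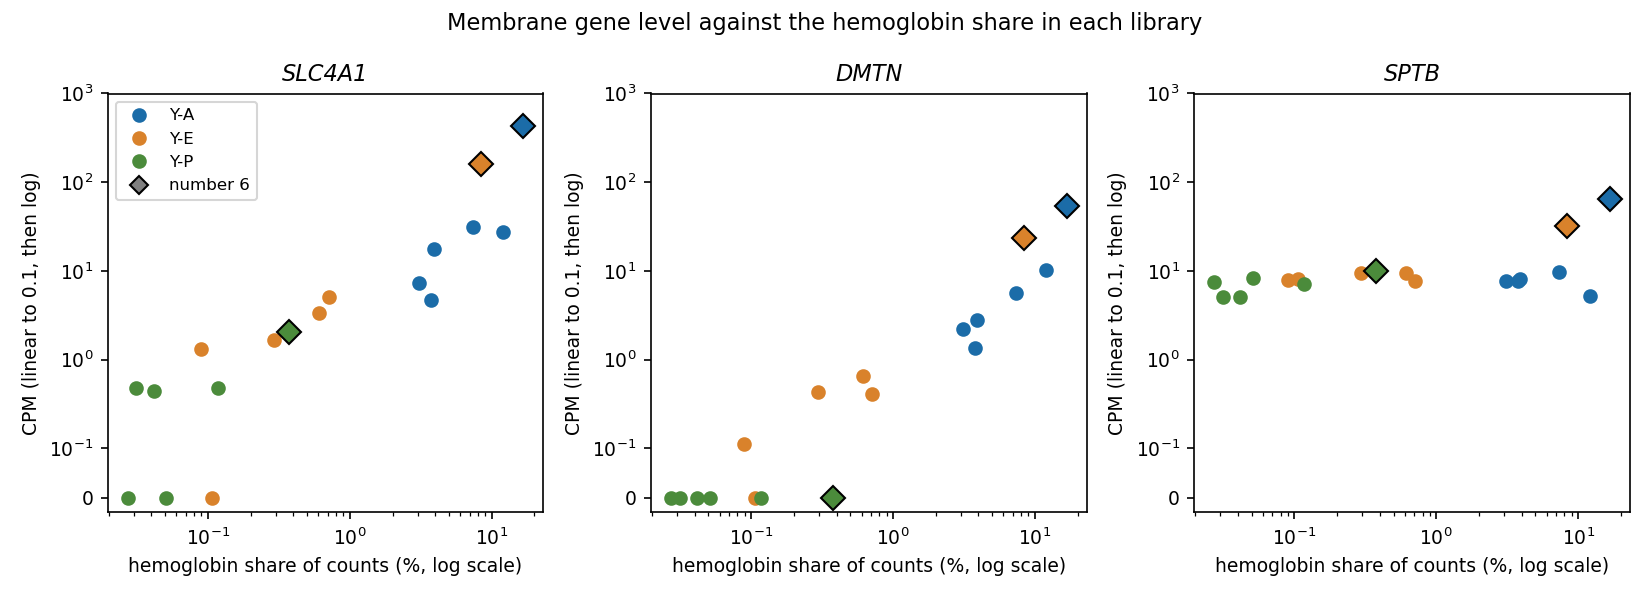
CPM of SLC4A1, DMTN and SPTB (y axis, linear to 0.1 and then logarithmic) against the percent of counts in the hemoglobin complex genes (x axis, logarithmic) in each of the 18 libraries; diamonds are the libraries numbered 6. SLC4A1 and DMTN are higher in libraries with more hemoglobin, with Y-A number 6 at 425 and 54.2 CPM, while SPTB lies between 5.05 and 9.90 CPM in 16 libraries over a hemoglobin share of 0.0272% to 12.1%.

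Whether each member and the hemoglobin genes changed by unequal factors was tested on the log2 ratio of their counts, which needs no library scaling (two-sided exact permutation test, 6 against 6, smallest possible p = 0.00216, adjusted over 24 tests). For Y-P vs Y-A the ratio differed for 4 of 8 members. It was higher in Y-P by 6.37 for EPB41, by 6.18 for ANK1 and by 6.14 for SPTB (exact permutation test, adjusted p = 0.013 each), while that of DMTN was lower by 2.03 (adjusted p = 0.021), a value that depends on the 0.5 added to its counts of 0. In Y-E vs Y-A the ratio was higher in Y-E by 3.78 for SPTB, by 3.59 for EPB41 and by 1.87 for ADD2 (exact permutation test, adjusted p = 0.013, 0.026 and 0.037). SLC4A1 had a mean log2 ratio to hemoglobin of -11.4 in anestrus, -11.1 in estrus and -11.7 in pregnancy. It had no count in 1 Y-E library and 2 Y-P libraries, so the estrus and pregnancy means depend on the added 0.5. Its differences of 0.29 (Y-E vs Y-A), -0.26 (pregnancy vs anestrus) and -0.55 (pregnancy vs estrus) did not pass the exact permutation test (adjusted p = 0.90 each), which does not show them to be 0. In Y-P vs Y-E no ratio passed (exact permutation test, smallest p = 0.024, adjusted p = 0.062), with 4 of 8 at an unadjusted p under 0.05.

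The same test on the ratio of each other member to SLC4A1 asked whether the members changed by unequal factors among themselves. Between Y-A and Y-P the ratio to SLC4A1 rose by 6.63 for EPB41, by 6.44 for ANK1 and by 6.40 for SPTB (exact permutation test, adjusted p = 0.015 each over 21 tests). For DMTN, ADD2, RHAG and AQP1 it differed by -1.77, 2.88, 1.23 and 1.92, with adjusted p from 0.32 to 0.41 by the same exact permutation test. SLC4A1 had no count in 2 of the 6 Y-P libraries, so the sizes of all 7 differences depend on the 0.5 added to each count. DMTN and RHAG had a median count of 0 in Y-P as well. In each of the other 2 comparisons 0 of 7 ratios passed, with 1 at an unadjusted p under 0.05. Paired by number, the smallest p of the exact sign-flip test is 0.03125, and no ratio could pass the adjustment.

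How the members varied together is given as a description, since all genes share their libraries and 2 of these lie far out. The median Pearson r of log2 CPM over the 28 pairs of members was 0.75, with a range of 0.42 to 0.93. It was 0.73 after the stage means were subtracted and 0.31 over the 16 libraries. For the 10 pairs among SLC4A1, DMTN, ADD2, RHAG and AQP1, grouped after their values were seen, the median was 0.88 over 18 and 0.79 over 16 libraries. The 7 pairs with ANK1 had a median of 0.58 over 18 and 0.21 over 16 libraries. With stage means subtracted over the 16 libraries, the median was 0.23 over all 28 pairs. It was then 0.44 for the 10 pairs (range -0.19 to 0.69) and 0.47 for the 7 with ANK1. The contrast between these 2 sets of pairs was thus not seen within stages.

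The genes whose pattern was most like the mean of the 8 members, by Pearson r of log2 CPM over 18 libraries, were SLFN14 (r = 0.96), HEMGN (0.96), DYRK3 (0.95) and the unnamed ENSBGRG00000014765 (0.95) and ENSBGRG00000014049 (0.95). HEMGN encodes hemogen, a nuclear protein of blood cell precursors, and ENSBGRG00000014765 is annotated to the hemoglobin complex. With stage means subtracted, the 5 most alike were ALAS2 (0.96), HEMGN (0.95), DYRK3 (0.94), the unnamed ENSBGRG00000011933 (0.94) and SLFN14 (0.94). ALAS2 is the erythroid enzyme that starts heme synthesis, and it had 9942 and 4260 CPM in number 6 of Y-A and Y-E, where the highest of the other 16 libraries had 1935 CPM. HEMGN had 489.6 and 184 CPM in those libraries and at most 31.0 CPM in the others.

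Other genes of the red cell membrane were read from a list of 25, written with earlier results of these data known, of which 18 had a row and all 18 were tested. Over 18 libraries, their median log2 fold change was -0.02 in Y-E vs Y-A, -0.22 for pregnancy against anestrus and -0.43 for pregnancy against estrus. In the same order, the medians over all genes were -0.01, 0.03 and 0.04, and those over the 8 members -1.47, -5.17 and -3.68. With DMTN at its lower bound in place of the fitted value, the member medians against Y-P were the same. They could not move, because the bound also lay below the median. RHAG, whose fitted values also depend on the fit, was not replaced. The number called was 0 of 18, 3 of 18 and 2 of 18, all lower in the later stage. Of all tested genes, 0.0138%, 1.09% and 2.22% were called lower. The gap between the 2 lists depended on the libraries numbered 6. Without Y-E replicate 6, the member medians were -4.26, -5.17 and -0.47 in the same order. Those of the other membrane genes were then 0.002, -0.22 and -0.20. Over the 16 libraries the medians were -2.15, -3.01 and -0.70 for the 7 members tested. For the other membrane genes they were -0.02, -0.27 and -0.22.

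KEL, the Kell blood group glycoprotein, fell by 6.42 ± 1.70 on the log2 scale (SE; edgeR adjusted p = 0.034) and ICAM4, an adhesion molecule of red cells, fell by 5.62 ± 1.43 (adjusted p = 0.029) in Y-P vs Y-A. In Y-P, KEL had no count in 5 of 6 libraries and ICAM4 in 4 of 6, with at most 11 counts each, so these sizes depend on the fit. Number 6 was the highest library of both genes in all 3 stages. Over the 16 libraries both were called as well. Among the calls of Y-P vs Y-E was FLOT2, a flotillin of membrane rafts found in many cells, at 245 to 703 CPM in Y-E and 162 to 204 CPM in Y-P. It fell by 1.17 ± 0.20 (adjusted p = 0.0012), and number 6 was not its highest library in any stage. ACTB and TPM3, actin and tropomyosin, had the highest mean FPKM of the list and were not called, with log2 fold changes in Y-P vs Y-A of 0.19 ± 0.15 and 0.03 ± 0.13.

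Paralogs of the members that other cells use were read from a list of 22, of which 20 had a row and 18 were tested. The test called 0 of 18 in each comparison, where 0.0138%, 1.43% and 2.67% of the tested genes were called, with medians of -0.07, -0.07 and -0.01 in the same order. SPTAN1 and SPTBN1, the spectrin chains of nucleated cells, had the highest mean FPKM. In CPM, SPTAN1 ran from 849 to 1160 and SPTBN1 from 478 to 717 across the 18 libraries, and in number 6 of Y-A and Y-E both lay within the range of the other libraries of the stage, at 1006 and 929 CPM for SPTAN1 and at 563 and 542 CPM for SPTBN1. Number 6 was the highest library for 5 of 20 paralogs in Y-A and for 4 of 20 in Y-E, and for 6 of 18 and 5 of 18 of the other membrane genes.

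**Figure D4:**
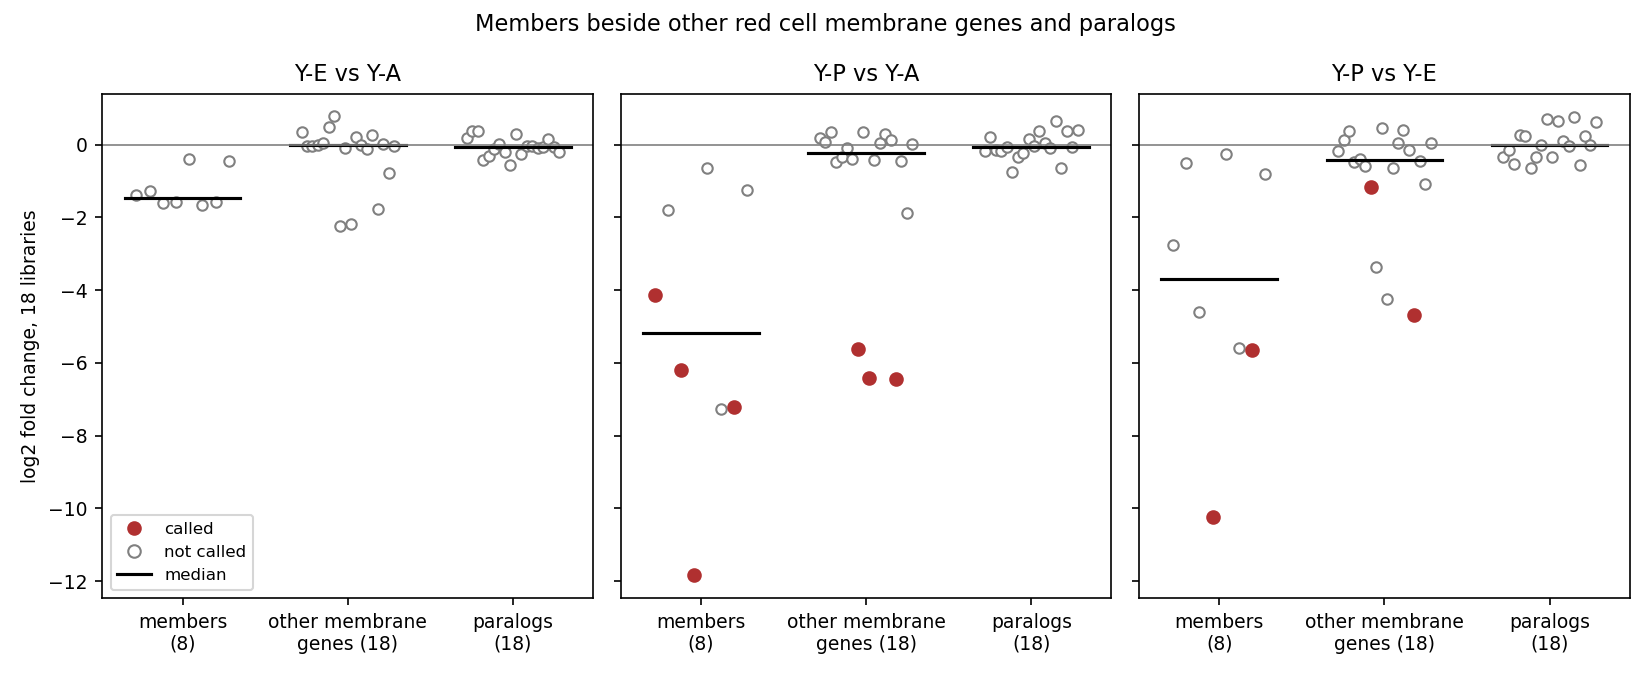
Log2 fold change over 18 libraries (y axis) for the 8 members, 18 other red cell membrane genes and 18 paralogs in each comparison; each point is a gene, filled where called, and lines are medians. In Y-P vs Y-A the member median is -5.17 with 4 filled points, the other membrane genes have a median of -0.22 with 3 filled points, and the paralogs a median of -0.07 with none. Over the 16 libraries without number 6 of Y-A and Y-E, not drawn here, the member median there is -3.01 and that of the other membrane genes -0.27.

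Markers of other cell types also moved between the stages. Summed neutrophil markers ran from 2796 to 4913 CPM in Y-A, from 3862 to 8407 CPM in Y-E and from 2210 to 3184 CPM in Y-P. Summed platelet markers ran from 284 to 373 CPM in Y-A, 241 to 396 CPM in Y-E and 155 to 209 CPM in Y-P, so the Y-P libraries were below all others, and the sum over T cell markers ran from 836 to 1049 CPM in anestrus and from 1022 to 1715 CPM in pregnancy. Of the 10 erythroid markers tested, 5 were called lower in Y-P vs Y-A (KLF1, ALAS2, HBM, BLVRB and SLC25A39), against 1.09% of the genes. In Y-P vs Y-E 2 were called lower (ALAS2 and HBM), against 2.22%, and in Y-E vs Y-A 0, against 0.0138%. Without Y-E replicate 6 the Y-E vs Y-A count was 4 (KLF1, ALAS2, HBM and SLC25A39), where 0.123% of the genes were called. Over the 16 libraries it was 3 (ALAS2, HBM and SLC25A39), where 0.0822% were called, and in both sets 0 members were called. The Y-P vs Y-E count was 1 (HBM) in both sets, where 2.58% of the genes were called without Y-E replicate 6. The part of these shifts in the values of the members was not tested.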

How the data were processed

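Whole blood RNA of 18 libraries (6 per stage) was analysed. Per the labels and the study's methods, the authors trimmed reads with cutadapt 1.9, aligned them with HISAT2 2.2.1 to the Bos grunniens genome (v101), and estimated expression with StringTie 2.1.6 and ballgown. The deposited FPKM values are fragments per exon length and depth. The authors also deposited whole-number counts that were not normalized, and how these were made is not given in the sources used here. DESeq2 and edgeR are named in the submitters' processing notes without a role. The members and all gene lists were chosen with earlier results of these data known.

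The test on counts was that of edgeR 4.0.16 in R 4.3.3 (TMM, filterByExpr by stage, quasi-likelihood fit with stage over 18 libraries, two-sided, Benjamini-Hochberg over all tested genes). Calls needed an adjusted p under 0.05 together with a log2 change of 1 or more either way. P-values measure the spread between libraries. CPM, medians, ratios (0.5 added to each count) and exact permutation tests were computed with Python 3.11.15, numpy 2.4.6 and pandas 2.3.3, and figures with matplotlib 3.10.9. The tests were tried on simulated counts before use. Library totals of 30247267 to 48401076 put 3 counts at 0.0604 to 0.107 CPM.

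Named singly were all members, and from the 2 comparison lists the called genes and the 2 of highest mean FPKM. The values of 1 called gene are not reported here. Markers of erythroid cells, neutrophils, T cells, B cells, monocytes and platelets were summed as CPM. B cell markers ran from 419 to 1883 CPM and monocyte markers from 523 to 2007 CPM across the libraries.

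Alternatives were DESeq2 1.42.0, limma 3.58.1 on log2(FPKM + 1) and log2(FPKM + 0.1), other scalings, no filter, 2-stage fits, each library left out, and the replicate number as a block. The study states that blood of 6 cows was tracked across the stages, and the number was taken to mark the cow. Deviations from stage means of same-numbered libraries correlated at 0.11 to 0.51 in Y-E and Y-A (over 0.1 in 6 of 6 pairs), at -0.05 to 0.37 in Y-P and Y-A (4 of 6), and at -0.05 to 0.40 in Y-P and Y-E (4 of 6). Number 6 had the highest value in each. Libraries of unlike number were not compared, so these values do not show that the number marks the cow.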

Additional observations from a re-analysis of the deposited data

Results flagged for a closer look

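In 17 of the 23 sets of 6 libraries formed by a member and a stage (DMTN in Y-P, with no counts, was not searched), 1 library stood apart by Dixon's test, which divides its gap to the nearest library by the range of the 6 and flags ratios above 0.625. Chance flags about 1 in 20 sets, the sets share their libraries, and in all 17 the library was number 6, above the others.

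In Y-A the ratios were 0.937 for SLC4A1 (425 CPM), 0.880 for ANK1 (27.1 CPM), 0.926 for SPTB (64.7 CPM), 0.908 for EPB41 (2019 CPM), 0.832 for DMTN (54.2 CPM), 0.838 for ADD2 (28.5 CPM), 0.972 for RHAG (54.1 CPM) and 0.913 for AQP1 (59.9 CPM). Every member stood apart in that library. In Y-E they were 0.968 for SLC4A1 (161 CPM), 0.925 for SPTB (32.4 CPM), 0.818 for EPB41 (1091 CPM), 0.972 for DMTN (23.6 CPM), 0.933 for ADD2 (13.5 CPM), 0.986 for RHAG (17.7 CPM) and 0.975 for AQP1 (22.2 CPM). ANK1 in Y-E did not pass, although number 6 was its highest library. In Y-P they were 0.765 for SLC4A1 (75 counts) and 1 for RHAG (14 counts, where the other 5 libraries had none). A ratio of 1 is fixed whenever a single library has counts. Whether the cow, the sampling or the library lies behind number 6 was not tested.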

How the results depend on the processing

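Of 715 alternative values of member log2 fold changes, 656 kept direction and side of the threshold, 28 lost a call, 12 gained one and 19 turned sign. The sign of Y-E vs Y-A turned without Y-A replicate 6: the values with 1 library left out ran from -5.22 to 0.66 for SLC4A1, -2.04 to 0.40 for ANK1, -1.01 to 0.68 for SPTB, -0.68 to 0.20 for EPB41, -7.50 to 1.96 for RHAG and -5.50 to 0.65 for AQP1. SPTB was at 0.14 with number 6 left out of Y-A and Y-E, of all stages (0.14), or with no filter besides (0.14). In Y-P vs Y-E, with 1 library left out, ANK1 ran from -0.77 to 0.25, EPB41 from -0.34 to 0.032 and RHAG from -9.77 to 0.24. ANK1 was there at 0.18 under the replicate block, 0.15 under the block over 17 libraries, 0.22 without number 6 of Y-A and Y-E and 0.23 with no filter besides. EPB41 was at 0.0054 and 0.015 in those last settings, and RHAG at 0.26 with no filter.

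Members called over all alternatives that leave out 1 library numbered 0 in Y-E vs Y-A, 1 to 5 in Y-P vs Y-A and, for pregnancy against estrus, 1 to 4. In Y-E vs Y-A the replicate block over 17 libraries called 2. In Y-P vs Y-A, DESeq2 called 2 (ADD2 and DMTN, with no adjusted p for 5 members) and limma on log2(FPKM + 1) called 2. The next paragraph gives the genes called over the whole table, beside which these member counts are to be read. DMTN was called there under all alternatives run. In Y-P vs Y-E, limma called 0 with either pseudocount (DMTN adjusted p of 0.42 and 0.14), the fit of the 2 stages alone 1 of the 5 tested (SLC4A1; DMTN, AQP1 and RHAG did not pass its filter), DESeq2 called 2 (DMTN and ADD2, adjusted p of 1.7e-06 and 0.028, with none given for SLC4A1), and the fits without number 6 of Y-A and Y-E 1 (DMTN), with or without the filter. The replicate block changed no other call than those given.

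Genes called over the whole table in Y-E vs Y-A numbered 2, but 14 with DESeq2, 11 with the replicate block, 34 with the block over 17 libraries, 12 without number 6 of Y-A and Y-E, 15 without number 6 of any stage and 12 with no filter besides, and 2 to 18 with 1 library left out. In Y-P vs Y-A they numbered 208, but 128 and 343 with limma at pseudocounts of 1 and 0.1, and 110 to 229 with 1 library left out. In Y-P vs Y-E they numbered 387, but 143 with limma at a pseudocount of 1, and 289 to 476 with 1 left out.

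Ratios to hemoglobin passed for 2 to 4, 3 to 5 and 0 to 3 members with 1 library left out, for estrus against anestrus, pregnancy against anestrus and pregnancy against estrus. Ratios to SLC4A1 passed for 0 to 2, 3 to 4 and 0 to 1, and for 1 (EPB41) in Y-E vs Y-A without number 6 of Y-A and Y-E. Under the pairing by number, 0 passed in each, since its smallest p of 0.03125 cannot pass the adjustment. Unless stated, the cause was not tested. Genes at 0 to 20 counts, such as RHAG, DMTN and AQP1 in Y-P, are limited by depth, and a count of 0 does not show that a gene is absent.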
